A study of Mus musculus with 6 samples.

Results

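The genes described here are 10 genes of antigen presentation in the mouse parotid gland, chosen by symbol: H2-Aa, H2-Ab1, H2-Eb1, Cd74, Ciita, H2-DMa, H2-DMb1, B2m, H2-K1 and H2-D1. Each matched 1 Ensembl identifier in the mm10 annotation, so the set held 10 of the 52636 genes in the count tables. The irradiated group was 3 parotid gland samples from FVB mice aged 28 days after a single 5 Gy dose of radiation, and the untreated group was 3 samples from FVB mice of the same age. The protocol text with the dose stands on all 6 samples and was read here as applying to the irradiated ones. How long after the dose the glands were taken is not stated by the labels. A mark, D5, in the names of the irradiated tables has no explanation there and was not used. Nothing states that different samples are different mice, so a p-value here speaks only of the variation among these 6 samples, which may be technical. FVB is an inbred albino strain, and as background its H2 haplotype is not that of the C57BL/6 reference genome. How well reads from FVB alleles of these polymorphic genes aligned was not tested.

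Peptides are shown to T cells by 2 systems. Class I molecules, made of a heavy chain such as H2-K1 or H2-D1 and the light chain B2m, are found on nearly all nucleated cells and carry peptides cut by the proteasome in the cytosol. Class II molecules, made of an alpha and a beta chain, are found mainly on B cells, dendritic cells and macrophages. Cd74, the invariant chain, fills their groove until H2-DM exchanges its remnant for a peptide in the endosome, and Ciita is the coactivator that switches the class II promoters on.

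Ciita does not bind DNA itself but docks on factors that sit at short elements upstream of class II genes, the X and Y boxes, the second of which holds an inverted CCAAT sequence bound by NF-Y. Promoters of 3 class II genes and 2 class I genes from RefSeq (build GRCm38.p6, 250 bases before and 50 after the start of the gene) are shown because these elements tie the genes to the regulators measured with them. Capitals mark matches, on either strand, to AGNNACNGATG for the X box, ATTGG for the CCAAT sequence and GAAANNGAAA for an interferon-stimulated response element. They lie at chr17:34287774-34288073 (minus strand) for H2-Aa, chr17:34305617-34305916 for H2-Eb1, chr17:34152941-34153240 for H2-DMb1, chr2:122147437-122147736 for B2m and chr17:35262844-35263143 for H2-D1, the last 4 on the plus strand.
H2-Aa: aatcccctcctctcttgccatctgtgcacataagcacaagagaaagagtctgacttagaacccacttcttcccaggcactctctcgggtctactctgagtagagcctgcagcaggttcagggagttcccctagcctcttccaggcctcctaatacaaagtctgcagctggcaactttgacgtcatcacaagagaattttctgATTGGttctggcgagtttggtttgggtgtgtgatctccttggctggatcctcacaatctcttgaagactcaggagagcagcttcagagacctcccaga
H2-Eb1: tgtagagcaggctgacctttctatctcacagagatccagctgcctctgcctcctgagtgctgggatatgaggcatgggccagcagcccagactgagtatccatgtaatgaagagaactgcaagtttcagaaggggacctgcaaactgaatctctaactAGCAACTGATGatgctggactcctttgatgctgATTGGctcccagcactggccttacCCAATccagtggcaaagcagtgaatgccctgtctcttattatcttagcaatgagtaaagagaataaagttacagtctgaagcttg
H2-DMb1: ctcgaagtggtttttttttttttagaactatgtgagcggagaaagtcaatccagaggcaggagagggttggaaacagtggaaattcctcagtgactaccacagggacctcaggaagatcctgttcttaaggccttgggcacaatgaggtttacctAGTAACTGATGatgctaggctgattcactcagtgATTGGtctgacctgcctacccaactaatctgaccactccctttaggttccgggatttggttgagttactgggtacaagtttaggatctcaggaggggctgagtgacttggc
B2m: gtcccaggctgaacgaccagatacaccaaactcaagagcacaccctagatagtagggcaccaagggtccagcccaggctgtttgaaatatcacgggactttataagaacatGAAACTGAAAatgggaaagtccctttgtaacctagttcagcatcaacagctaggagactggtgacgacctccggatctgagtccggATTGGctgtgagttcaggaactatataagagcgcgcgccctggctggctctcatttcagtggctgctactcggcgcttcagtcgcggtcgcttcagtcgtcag
H2-D1: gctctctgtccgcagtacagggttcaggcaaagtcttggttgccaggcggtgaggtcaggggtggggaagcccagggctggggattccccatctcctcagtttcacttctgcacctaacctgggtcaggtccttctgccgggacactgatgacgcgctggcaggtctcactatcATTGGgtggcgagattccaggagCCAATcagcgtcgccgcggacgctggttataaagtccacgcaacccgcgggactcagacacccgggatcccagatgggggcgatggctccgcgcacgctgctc
The X box letters were found in H2-Eb1, starting at position -92 from the start site, and in H2-DMb1, at -95, each followed by an ATTGG, at -59 and -61. H2-Eb1 also held an ATTGG on the minus strand, which reads CCAAT as printed, at -35. H2-Aa held an ATTGG at -48, B2m held one at -53 and an interferon element at -139, and H2-D1 held an ATTGG on each strand, at -76 and, on the minus strand, at -53. No marked matches overlapped. Of 32851 RefSeq promoters, 0.968% held the X box letters, 37.4% the ATTGG and 3.44% the interferon element. A match is a description of the letters and no evidence of binding.

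Counts in genes totalled 7108359 to 14454646 in the irradiated libraries and 12722189 to 15036193 in the untreated ones. Irradiated replicate 2 was the shallowest, with 10% of its reads unaligned against 3.75% to 4.33% elsewhere. It also had 184 reads in the row for low alignment quality, where the others had 342749 to 491591. Bpifa2, a secreted protein of parotid acinar cells, took 26.8% to 31.2% of gene counts in every library. Untreated replicate 2 stood apart in lymphocyte markers: 6 of 16 B cell markers (Cd79a, Cd79b, Blk, Fcrl1, Fcrla and Tnfrsf13c) and 4 of 14 T cell markers (Cd3g, Cd8a, Zap70 and Cd28) had 0 counts there, and are named for that reason. Cd28 was also at 0 in irradiated replicate 2 and untreated replicate 3. Beside several of the fold changes where that library was lowest, the value without it is given. Levels below are CPM, counts scaled to library size and TMM factor.

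The class I genes, Cd74 and the I-A chains had fold changes near 1, and Ciita averaged 2.17-fold in irradiated glands with a wide spread among untreated ones. None of the 10 passed an adjusted p of 0.05 by edgeR's quasi-likelihood test, where 1.00% of all 12885 genes tested passed, 0.652% higher and 0.349% lower. All 10 were deep enough to be tested, and 4 had a positive and 6 a negative log2 fold change. Their median was -0.04, against -0.01 for all genes tested. At an unadjusted p under 0.05 there was 1 of the 10, Ciita, which was higher in irradiated glands. The same threshold was met by 15.0% of all genes, and by 7.51% in the higher direction. Counts at this threshold in the lists below are to be read against that share, and several lie near it. The 2 groups of libraries had no overlap in CPM for 2 of the 10, Ciita and H2-Aa, beside 21.2% of all genes. DESeq2 and limma-voom also called 0 of the 10.

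**Figure D1:**
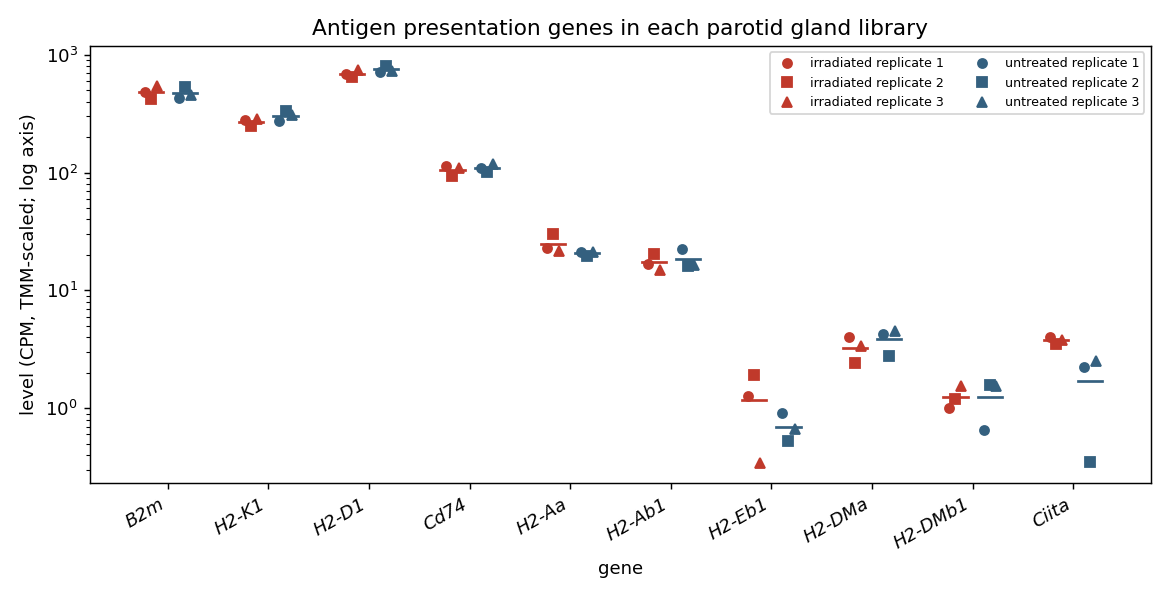
Level of each of the 10 genes (CPM, log axis) in each library, with 3 irradiated libraries in red left of 3 untreated libraries in blue, and a short line at each mean. The groups are separate for H2-Aa and Ciita, and untreated replicate 2 is the lowest point for Ciita, at 0.350 CPM.

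The class I genes were the most abundant of the set. B2m, the light chain shared by all class I molecules (ENSMUSG00000060802; chromosome 2, 122147686 to 122153083, mm10), had 482 (replicate 1), 423 (replicate 2) and 545 (replicate 3) CPM in irradiated glands, against 429, 528 and 451 CPM in untreated glands. The groups overlapped across their whole range. The means were 483 ± 60.6 CPM in irradiated and 469 ± 51.7 CPM in untreated glands (SD, n = 3 each), and the log2 fold change was 0.04 (SE 0.14; edgeR adjusted p = 0.921). Its 95% confidence interval of -0.24 to 0.33 corresponds to 0.847-fold to 1.25-fold.

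H2-D1, a classical class I heavy chain (ENSMUSG00000073411; chromosome 17, 35262730 to 35267499), had 688, 641 and 738 CPM in irradiated glands, against 714, 805 and 730 CPM in untreated glands. The irradiated libraries included the lowest values, but the highest of them lay above the lowest untreated one. Its log2 fold change was -0.12 (SE 0.13; edgeR adjusted p = 0.713), with an interval of -0.39 to 0.15. H2-K1, the other classical heavy chain measured (ENSMUSG00000061232; chromosome 17, 33996017 to 34000347), had 277, 248 and 287 CPM in irradiated glands and 273, 334 and 306 CPM in untreated glands. Untreated replicate 2 was the highest library for both heavy chains. The log2 fold change of H2-K1 was -0.17 (SE 0.13; edgeR adjusted p = 0.577), with an interval of -0.43 to 0.09.

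The intervals of the class I trio were narrow, and the largest fall they left in range was to 0.742-fold, for H2-K1. The summed level of B2m, H2-K1 and H2-D1 was 1443 ± 128 CPM in irradiated glands and 1523 ± 129 CPM in untreated glands (SD, n = 3 each). Class I genes share sequence: 9.63% of the 50-base words of H2-K1 transcripts and 12.8% of those of H2-D1 also occur in another gene, among them H2-Q10, H2-Q7 and H2-Q1. Reads that aligned to several places were not counted. How far this affected the levels of these 2 genes was not tested.

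Of the class II genes Cd74 was the most abundant. Cd74 (ENSMUSG00000024610; chromosome 18, 60803848 to 60812652) had 114, 92.7 and 109 CPM in irradiated glands, against 109, 101 and 117 CPM in untreated glands. Irradiated replicate 2, the shallowest library, was the lowest, and the groups otherwise coincided. The log2 fold change was -0.05 (SE 0.11; edgeR adjusted p = 0.876), with an interval of -0.29 to 0.18.

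H2-Aa, the alpha chain of the I-A class II molecule (ENSMUSG00000036594; chromosome 17, 34282744 to 34287823), had 22.8, 30.2 and 21.4 CPM in irradiated glands, against 21.3, 19.7 and 21.0 CPM in untreated glands. Every irradiated library was above every untreated one, but only just, apart from irradiated replicate 2, which lay well above the rest. The log2 fold change was 0.25 (SE 0.13; edgeR adjusted p = 0.380), with an interval of -0.02 to 0.53, and without irradiated replicate 2 it was 0.10. H2-Ab1, the beta chain that pairs with it (ENSMUSG00000073421; chromosome 17, 34257689 to 34269419), had 16.7, 20.2 and 15.02 CPM in irradiated glands and 22.5, 16.1 and 16.3 CPM in untreated glands. The groups overlapped, with untreated replicate 1 the highest, and the log2 fold change was -0.09 (SE 0.15; edgeR adjusted p = 0.844; interval -0.41 to 0.23).

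H2-Eb1, the beta chain of the I-E molecule (ENSMUSG00000060586; chromosome 17, 34305867 to 34316674), was near the limit of detection, with 19, 16 and 4 counts in the irradiated libraries and 11, 6 and 10 counts in the untreated ones. That is 1.27, 1.92 and 0.345 CPM in irradiated glands, against 0.905, 0.525 and 0.667 CPM in untreated glands. The irradiated libraries included both the highest and the lowest value. The log2 fold change was 0.70 (SE 0.58; edgeR adjusted p = 0.616), its interval ran from -0.50 to 1.90, and it was 0.25 without irradiated replicate 2 and 1.14 without irradiated replicate 3. H2-Ea-ps, the I-E alpha chain locus, annotated as a pseudogene in mm10, had 23, 10 and 6 counts in irradiated glands and 2, 2 and 6 counts in untreated glands, and did not reach the filter on low counts.

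H2-DMa and H2-DMb1 encode the alpha and a beta chain of H2-DM, the peptide exchange factor. H2-DMa (ENSMUSG00000037649; chromosome 17, 34119541 to 34139101) had 4.0, 2.41 and 3.37 CPM in irradiated glands, against 4.28, 2.80 and 4.54 CPM in untreated glands. H2-DMb1 (ENSMUSG00000079547; chromosome 17, 34153072 to 34160230) had 0.999, 1.20 and 1.55 CPM in irradiated glands, against 0.658, 1.57 and 1.53 CPM in untreated glands. Both overlapped between groups, with log2 fold changes of -0.23 (SE 0.29; edgeR adjusted p = 0.763) and -0.02 (SE 0.47; 0.990). Their intervals were -0.84 to 0.38 for H2-DMa and -0.995 to 0.96 for H2-DMb1, and that of H2-DMb1 reached from 0.502-fold to 1.95-fold. Of the 50-base words of H2-DMb1, 22.7% also occur in its neighbour H2-DMb2, so counts of this pair are uncertain.

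Ciita, the class II coactivator (ENSMUSG00000022504; chromosome 16, 10480059 to 10528418), had the largest positive fold change of the 10. It had 60, 29 and 44 counts in the irradiated libraries and 27, 4 and 38 counts in the untreated ones. In CPM this was 4.0, 3.49 and 3.80 in irradiated glands, against 2.22, 0.350 and 2.53 in untreated glands. The irradiated libraries lay close together and above all the untreated ones, of which replicate 2 was far the lowest. The means were 3.76 ± 0.256 CPM in irradiated and 1.70 ± 1.18 CPM in untreated glands (SD, n = 3 each). The log2 fold change was 1.11 (SE 0.46; interval 0.12 to 2.11) and missed the threshold (edgeR adjusted p = 0.271, unadjusted p = 0.0304). Without untreated replicate 2 it was 0.66, at an adjusted p of 0.408. Genes on the opposite strand overlap Ciita (Dexi), H2-Eb1 (Gm20513), H2-DMa (Brd2) and B2m (Patl2). On their own strand, H2-DMa also overlaps CR974462.3 and Cd74 overlaps Mir5107. The strand setting of the counting was not given in the sources used here.

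**Figure D2:**
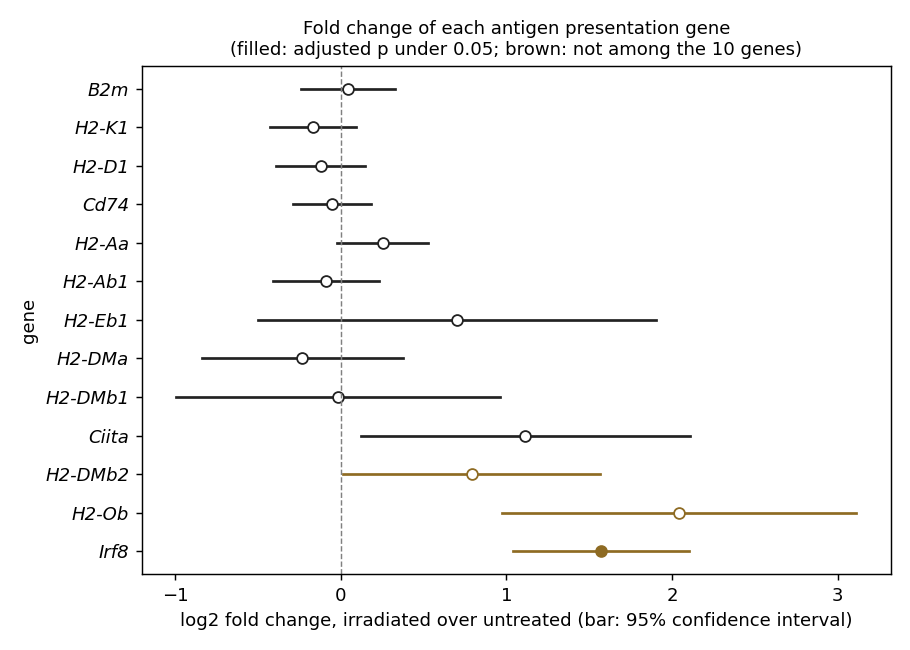
Log2 fold change of each of the 10 genes and of H2-DMb2, H2-Ob and Irf8 (brown), irradiated over untreated, with bars for the 95% confidence interval and filled points for an adjusted p under 0.05. The intervals of the class I genes, Cd74, H2-Aa and H2-Ab1 all cross 0 and stay within -0.43 to 0.53, that of Ciita runs from 0.12 to 2.11, and Irf8 is the filled point.

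Set in order by level per kilobase of the longest annotated transcript, averaged over all 6 libraries, the genes ran B2m (553.9 CPM per kb), H2-D1 (342), H2-K1 (153), Cd74 (75.9), H2-Ab1 (14.7), H2-Aa (7.05), H2-DMa (1.78), H2-DMb1 (0.893), H2-Eb1 (0.562) and Ciita (0.455). Neighbours in this order did not overlap in any library from B2m down to H2-DMa and H2-DMb1. H2-DMb1, H2-Eb1 and Ciita overlapped their neighbours and have no clear order. Only 54 of 12867 genes stood above B2m on this scale and 258 above Cd74, while Ciita stood at the 9.64th percentile. Per kilobase of all annotated exons H2-Ab1 and H2-Aa kept their order but lay closer, at 6.94 and 5.98 CPM.

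The summed level of H2-Aa, H2-Ab1, H2-Eb1 and Cd74 was 154, 145 and 145 CPM in irradiated glands, against 153, 137 and 155 CPM in untreated glands. The means were 148 ± 5.23 CPM and 149 ± 9.93 CPM (SD, n = 3 each), so irradiated and untreated glands did not separate on this sum. In a bulk sample, fewer cells of a type and less RNA per cell cannot be told apart.

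Ratios between partner genes within a library were formed to see whether they kept the same proportions, and are given with no test. B2m over the sum of H2-K1 and H2-D1 was 0.500, 0.476 and 0.532 in irradiated glands, against 0.435, 0.463 and 0.436 in untreated glands, with no overlap. H2-Aa over H2-Ab1 was 1.36, 1.49 and 1.43 in irradiated glands, against 0.945, 1.22 and 1.29 in untreated glands, again with no overlap. Cd74 over H2-Aa was 4.99, 3.07 and 5.07 in irradiated glands, against 5.09, 5.13 and 5.59 in untreated glands, where irradiated replicate 2 was far the lowest and the nearest libraries of the groups almost touched. H2-K1 over H2-D1 lay at 0.386 to 0.403 in irradiated and 0.382 to 0.419 in untreated glands, which overlapped. H2-DMb2 over H2-DMb1 lay at 2.33 to 3.33 in irradiated and 0.556 to 4.25 in untreated glands, which overlapped too. How often ratios of other gene pairs separate was not tested. Of single genes, 21.2% had no overlap between the groups.

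Transcript length moved with fold change over all genes tested. In 2574 genes with the shortest transcripts the log2 fold changes had a median of -0.17, and in 2574 genes with the longest one of 0.10. The longest transcript was 860 bases for B2m, 1212 for H2-Ab1 and 3223 for H2-Aa. With a correction for length and GC content, the log2 fold change was 0.17 for B2m, 0.06 for H2-Ab1 and 0.18 for H2-Aa. None of them passed, at edgeR adjusted p values of 0.715, 0.922 and 0.624.

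Of 5 other class II genes, 2 had enough reads to be tested, H2-Ob and H2-DMb2, and neither passed by edgeR, though both had an unadjusted p under 0.05. H2-Ob, the beta chain of H2-DO, which restrains H2-DM in B cells, had 1.86, 3.73 and 2.33 CPM in irradiated glands, against 1.07, 0.175 and 0.60 CPM in untreated glands. The groups were separate, and untreated replicate 2, with 2 counts, was the lowest. Its log2 fold change was 2.04 (SE 0.51), just short of the threshold (edgeR adjusted p = 0.0555). DESeq2 called it at an adjusted p of 0.0234, the range over the 14 alternatives was 0.00273 to 0.166, and without untreated replicate 2 the log2 fold change was 1.64. H2-DMb2, a second H2-DM beta chain, had 3.33, 2.89 and 3.63 CPM in irradiated glands and 2.80, 0.874 and 2.00 CPM in untreated glands, a log2 fold change of 0.79 (SE 0.37; edgeR adjusted p = 0.326). Untreated replicate 2 was the lowest here too, and without it the value was 0.46 (adjusted p = 0.623).

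Of 11 transcription factors of class II promoters and of the Ciita gene, 1 rose, 0 fell and 10 did not pass. Their median log2 fold change was 0.08, against -0.01 for all genes. An unadjusted p under 0.05 was met by 3, Irf8, Nfya and Rfxank. Nfya was higher at 0.49 (SE 0.17; edgeR adjusted p = 0.155) and Rfxank lower at -0.79 (SE 0.35; 0.283), both with separate groups. Irf8, a factor of B cells, dendritic cells and macrophages, rose to 9.32, 8.78 and 9.07 CPM in irradiated glands, against 4.28, 1.75 and 3.07 CPM in untreated glands. The irradiated libraries were close together and all above the highest untreated one, and untreated replicate 2 was again the lowest. Its log2 fold change was 1.57 (SE 0.25; edgeR adjusted p = 0.00321), a 2.97-fold rise, and it was called under all 14 alternatives, with 1.31 without untreated replicate 2. Irf8 shares its locus with the annotated gene Gm20388 on the same strand, so reads of the 2 cannot be fully separated.

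No gene of the steps that feed class I was called. Of 14 genes of the immunoproteasome, peptide transport and loading, 0 rose and 0 fell by edgeR, 0 had an unadjusted p under 0.05 and their log2 fold changes ran from -0.15 to 0.20. Tap1, a subunit of the peptide transporter, had 21.9, 21.4 and 23.7 CPM in irradiated glands, against 18.1, 24.7 and 21.9 CPM in untreated glands. Nlrc5, the class I counterpart of Ciita, had 15.2, 18.4 and 19.4 CPM in irradiated and 14.2, 20.02 and 19.4 CPM in untreated glands, a log2 fold change of -0.02 (SE 0.15). Psmb8, a catalytic subunit of the immunoproteasome, stood at 0.20 (SE 0.15), Tapbp, or tapasin, at -0.15 (SE 0.12), and the chaperones Calr and Pdia3 at 0.11 (SE 0.12) and -0.10 (SE 0.12).

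Of 16 other class I and class I-like genes that could be tested, 0 passed in either direction by edgeR and 3 had an unadjusted p under 0.05, all 3 lower. Their median log2 fold change was -0.15, with 12 negative values. H2-Q7, a nonclassical class I gene, had 22.8, 19.7 and 29.8 CPM in irradiated and 28.3, 32.6 and 28.6 CPM in untreated glands, a log2 fold change of -0.30 (SE 0.14; edgeR adjusted p = 0.298), and H2-Q4 stood at -0.11 (SE 0.13). Of 14 genes of class II processing and turnover, which are lysosomal enzymes, tetraspanins and ubiquitin ligases, 0 passed and 3 had an unadjusted p under 0.05, with a median of -0.09. The 3 were the protease Ctsl at -0.33 (SE 0.11), the tetraspanin Cd63 at -0.38 (SE 0.11) and the leukocyte tetraspanin Cd37 at 1.08 (SE 0.26; edgeR adjusted p = 0.0519). The proteases Ctsb and Ctsd stood at -0.09 (SE 0.12) and -0.23 (SE 0.12).

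Costimulatory ligands and most interferon gamma genes had positive log2 fold changes that did not pass. Of 9 costimulatory and coinhibitory ligands 3 could be tested, 0 passed by edgeR and 2 had an unadjusted p under 0.05. Icosl, a ligand for T cell ICOS, had 5.13, 4.81 and 5.27 CPM in irradiated glands, against 3.13, 1.66 and 3.60 CPM in untreated glands, a log2 fold change of 0.84 (SE 0.29; edgeR adjusted p = 0.156) that was 0.59 without untreated replicate 2, the lowest library. Cd86, a ligand of CD28, stood at 0.91 (SE 0.42; 0.315). Of 16 tested genes of interferon gamma signalling, 14 were positive with a median of 0.28, 0 passed and 1 had an unadjusted p under 0.05. That was Cxcl9, an interferon-induced chemokine, with 2.06, 1.08 and 1.21 CPM in irradiated glands, against 0.411, 0.262 and 0.133 CPM in untreated glands, separate groups and a log2 fold change of 2.46 (SE 0.59; edgeR adjusted p = 0.0503). Jak1, a kinase of the interferon gamma receptor, stood at 0.13 (SE 0.12) and Irgm1, an induced GTPase, at 0.26 (SE 0.13). Ifng itself had 0 counts in every library, which allows up to 3 counts, or 0.200 to 0.361 CPM, for counting error only.

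**Figure D3:**
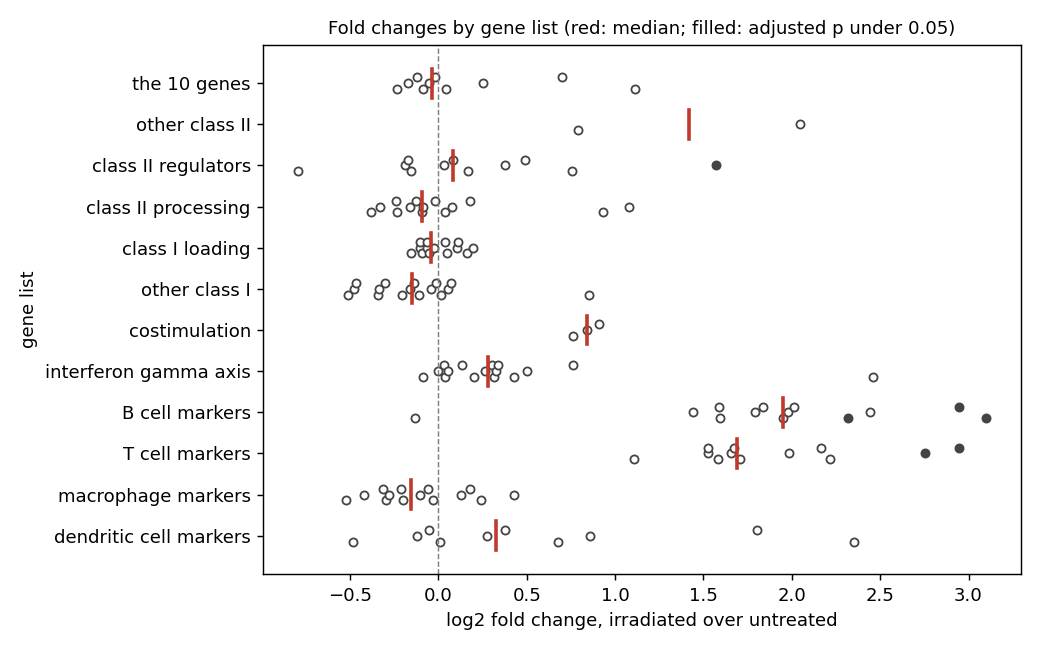
Log2 fold change, irradiated over untreated, of each tested gene in 12 lists, with a red line at each list's median and filled points for an adjusted p under 0.05. The 10 genes have a median of -0.04 and no filled point, and the B and T cell marker lists have medians of 1.95 and 1.69.

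Markers of B and T lymphocytes, the first of which carry class II, were measured beside these genes. Of 13 tested B cell markers 3 rose, Bank1, Fcrl1 and Tnfrsf13c, with a median log2 fold change of 1.95. Of 12 tested T cell markers 2 rose, Cd5 and Cd8b1, with a median of 1.69. Without untreated replicate 2, 3 of 15 tested B cell markers were called with a median of 1.43, and 2 of 12 T cell markers with a median of 1.16. These were not all the same markers: of those named above, only Bank1 and Cd5 kept their calls in that fit. The summed B cell markers averaged 68.3 ± 1.41 CPM in irradiated and 27.1 ± 13.4 CPM in untreated glands (SD, n = 3 each). Ebf1, also a factor of other cell types, stood at 9.65 to 15.5 CPM in all libraries and was the 1 tested B cell marker with a negative log2 fold change. Leaving it out, a choice made after its values were seen, the sum stood at 58.0, 56.3 and 55.8 CPM in irradiated glands, against 26.9, 1.05 and 16.01 CPM in untreated glands. Summed T cell markers stood at 39.8 to 55.4 CPM in irradiated and 1.84 to 18.7 CPM in untreated glands. The order of the untreated libraries was lowest in replicate 2 for both sums, as for Ciita, H2-Ob, H2-DMb2 and Irf8. The part of these cells in the values of those genes was not tested.

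Of those calls Cd5 was kept in each fit that left out 1 library, Bank1 was lost without irradiated replicate 1, Cd8b1 without irradiated replicate 2, untreated replicate 1 or untreated replicate 2, and Fcrl1 without irradiated replicate 1 or 2 or untreated replicate 2 or 3. Tnfrsf13c was lost in all 6 such fits. Without robust shrinkage and with limma-voom, 0 of the B cell and 0 of the T cell markers were called, while all 12 tested T cell markers and 12 of 13 B cell markers had an unadjusted p under 0.05 in both. Without untreated replicate 2 the log2 fold changes were 1.88 for Bank1, 2.59 for Fcrl1, 2.44 for Tnfrsf13c, 2.53 for Cd5 and 2.34 for Cd8b1.

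Summed macrophage and dendritic cell markers overlapped between the groups, though some single markers did not. Of 14 macrophage markers 0 passed by edgeR and 2 had an unadjusted p under 0.05, with a median of -0.15 and 10 negative values. Their sum was 209 to 215 CPM in irradiated and 189 to 224 CPM in untreated glands, and no macrophage marker was at 0 in any library. The largest part of that sum was Lyz2, a lysozyme of macrophages and neutrophils, with means of 90.5 CPM in irradiated and 67.2 CPM in untreated glands. Lyz2 stood at 0.43 (SE 0.14; edgeR adjusted p = 0.170) and Csf1r, the macrophage growth factor receptor, at -0.29 (SE 0.12; 0.259). Of 10 tested dendritic cell markers 0 passed and 2 had an unadjusted p under 0.05, with a median of 0.32, and their sum of 462 to 575 CPM in irradiated and 485 to 552 CPM in untreated glands was mostly Cd24a, which stood at 0.01 (SE 0.13). Cd24a is also expressed outside dendritic cells, and without it the sum was 67.5 to 73.7 CPM in irradiated and 58.9 to 71.6 CPM in untreated glands. Most of that was Tcf4, at 43.4, 44.4 and 40.1 CPM in irradiated glands, against 38.6, 47.4 and 46.7 CPM in untreated glands. The overlap of these sums therefore says little about the less abundant markers. Xcr1, a chemokine receptor of cross-presenting dendritic cells, had 2.13, 1.08 and 1.12 CPM in irradiated glands, against 0.247, 0.175 and 0.400 CPM in untreated glands, with separate groups and a log2 fold change of 2.35 (SE 0.58; edgeR adjusted p = 0.0540). Ccr7, Siglech and Cd83 were also separate between the groups, with log2 fold changes of 1.80, 0.86 and 0.68 that did not pass. Over all genes, 21.2% were separate. Flt3 and Ccr7 had 0 counts in untreated replicate 2. Beside Xcr1, the other marker with an unadjusted p under 0.05 was Clec10a, which was lower. It stood at -0.48 (SE 0.21; edgeR adjusted p = 0.290), with overlapping groups. Itgax, Zbtb46 and Bst2 overlapped between the groups as well.

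**Figure D4:**
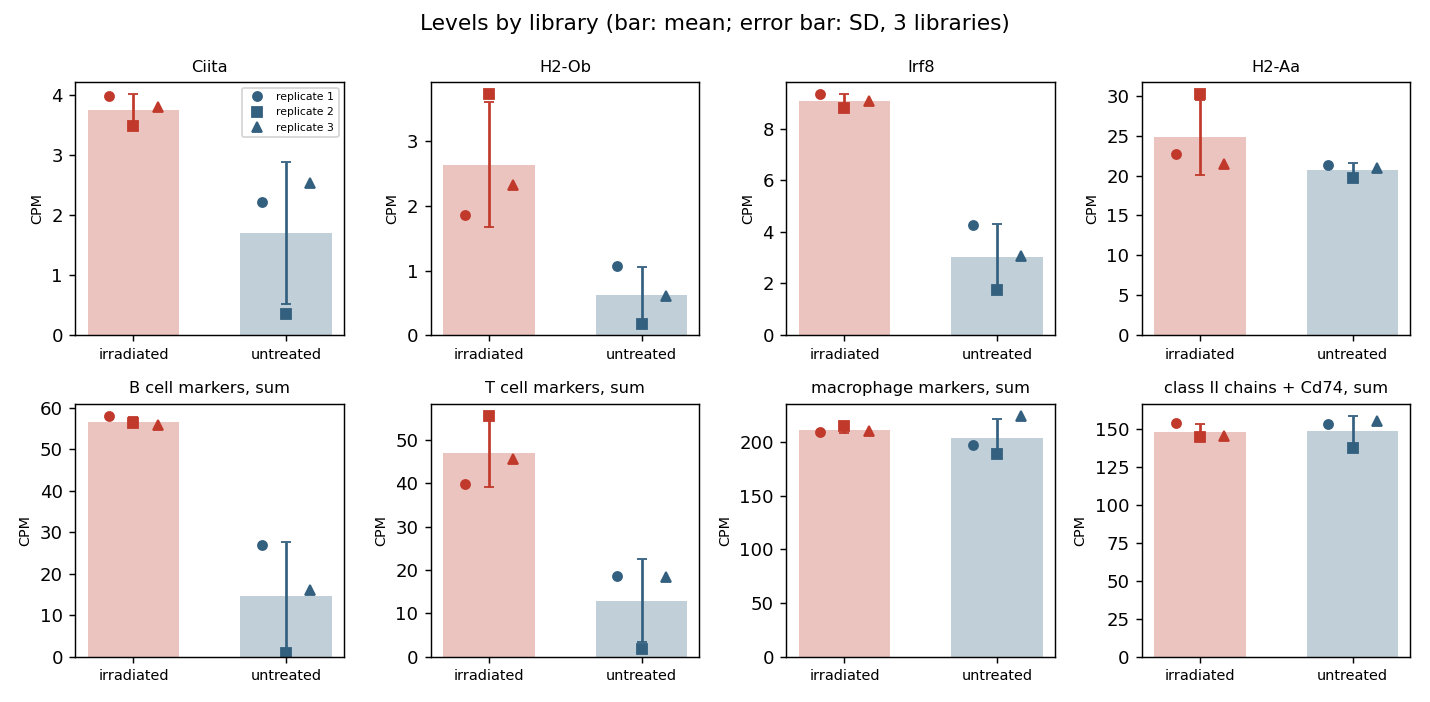
Levels of Ciita, H2-Ob, Irf8 and H2-Aa and summed levels of marker lists (CPM, linear axes from 0) in 3 irradiated libraries, left, and 3 untreated libraries, right, with bars for means and error bars for SD. The B cell sum leaves out Ebf1. Untreated replicate 2 (square) is the lowest for every panel of the 8, at 1.05 CPM for B cells and 137 CPM for the class II sum.

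Markers of endothelium, ducts, acini and plasma cells were measured as well. Summed endothelial markers stood at 108.6 to 119 CPM in irradiated and 96.7 to 108 CPM in untreated glands. Summed duct markers stood at 1833 to 2108 CPM in irradiated and 2129 to 2474 CPM in untreated glands. Neither sum overlapped between the groups, and how often such sums separate was not tested. The duct sum was mostly Klk1, which alone overlapped, at 1429 to 1639 CPM in irradiated and 1597 to 1946 CPM in untreated glands. Of 8 endothelial markers 0 passed by edgeR, 2 had an unadjusted p under 0.05 and the median was 0.15, with Pecam1 at 0.33 (SE 0.13) and Plvap at 0.13 (SE 0.12). Of 9 duct markers 0 passed, 3 had an unadjusted p under 0.05 and the median was -0.10. Klk1 stood at -0.19 (SE 0.14) and Krt18 at -0.53 (SE 0.13; edgeR adjusted p = 0.0541). Kit, 1 of the 3, was higher at 0.28 (SE 0.12; 0.290). Of 10 parotid acinar markers 1 fell, Car6, a secreted carbonic anhydrase, at 7200.1, 7880.1 and 11377 CPM in irradiated and 15577, 16178 and 14061 CPM in untreated glands. Of these 10 markers 5 had an unadjusted p under 0.05, all lower, and the median was -0.21. Over all genes, 15.0% met that threshold. The log2 fold change of Car6, -0.79 (SE 0.18; edgeR adjusted p = 0.0329), kept its call without irradiated replicate 3 and lost it without any 1 of the other 5 libraries. Of 5 tested plasma cell markers 0 passed, 1 had an unadjusted p under 0.05 and the median was 0.03. Derl3 stood at -0.09 (SE 0.12) and Sdc1 at 0.03 (SE 0.18). The 1 was Pou2af1 at 1.74 (SE 0.64; edgeR adjusted p = 0.230), with separate groups and 0 counts in untreated replicate 2. Jchain stood at -1.38 (SE 1.24), with 7.24, 0.962 and 0.334 CPM in untreated glands. Derl3, with means of 95.4 CPM in irradiated and 101 CPM in untreated glands, was far above Jchain, with means of 1.09 and 2.85 CPM. How far cells other than plasma cells supplied Derl3 and Sdc1 was not tested.

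The genes outside all lists whose centred log2 CPM lay nearest to the mean of H2-Aa, H2-Ab1, H2-Eb1 and Cd74 over the 6 libraries were Cand2, Hdac1, Cybb, Zfp354c and Pdk3, with root mean square differences of 0.0488 to 0.0719 among 12719 genes ranked. Cybb, a subunit of the phagocyte oxidase, had 10.2, 12.3 and 7.34 CPM in irradiated glands and 8.89, 7.34 and 8.67 CPM in untreated glands. Irradiated replicate 2 was the highest for each of these 5 genes, as for H2-Aa and H2-Eb1, while Cd74 was at its lowest there, at 92.7 CPM. Each class II gene had equal weight in the mean, so H2-Eb1, at 4 to 19 counts and with the widest spread, shaped it most. How far nearness to this mean reflects counting error of H2-Eb1 was not tested.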

How the data were processed

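RNA of 3 irradiated and 3 untreated parotid glands was sequenced from total RNA libraries made with a stranded kit, per the labels' protocols. Each sample's deposited table gives raw read counts by Ensembl gene, as whole numbers. bcl2fastq, HISAT2, HTSeq and build mm10 are named in the submitters' processing notes, with no versions. Rows naming no gene held 32.4% to 40.7% of reads and entered neither library sizes nor tests. Groups came from the treatment label. Of 52636 genes, 52489 matched the GENCODE M21 annotation of mm10.

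Groups were compared by quasi-likelihood in edgeR 4.0.16 (R 4.3.3) with robust shrinkage, TMM scaling and filterByExpr (minimum count 10), fitted on the whole table. P-values were Benjamini-Hochberg adjusted over 12885 genes, with a threshold of 0.05. SEs were derived from each fold change and the F statistic of its test, and 95% intervals from the SE and the t distribution with the test's degrees of freedom. Counts limit precision, and intervals cover the spread between these samples. The procedure was tested on simulated counts. The replicate numbers are not stated to pair the samples. Fits with DESeq2 1.42.0, limma-voom (limma 3.58.1) and 12 other settings were run as alternatives. The 10 genes and the lists were chosen with earlier results of these data known. Named genes are the 10, up to 4 called members of each list, or where none was called its 2 most abundant ones, chosen members of the other class II and class I loading lists, and the 5 nearest in pattern. H2-Ea-ps, Ifng, Cxcl9, Ebf1, Cd37, Cd63, Ctsl, Xcr1, Ccr7, Siglech, Cd83 and the markers at 0 were named after their values were seen. So were Clec10a, Itgax, Zbtb46, Bst2, Nfya, Rfxank, Kit, Pou2af1 and Jchain.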

Additional observations from a re-analysis of the deposited data

How the results depend on the processing

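None of the 10 genes was called higher or lower under any of the 14 alternatives, and 121 of their 140 alternative fold changes kept their sign. The other 19 changed sign around 0, and the cause was not tested. With library totals alone the all-gene median moved to 0.14, and the log2 fold changes were 0.072 for H2-Ab1, 0.087 for Cd74, 0.12 for H2-DMb1 and 0.027 for H2-D1, and of other named genes 0.051 for Ctsb, 0.039 for Pdia3, 0.12 for Nlrc5, 0.0355 for H2-Q4, 0.061 for Derl3 and 0.10 for Tcf4. With the length and GC correction they were 0.063 for H2-Ab1, 0.073 for Cd74, 0.10 for H2-DMb1 and 0.0498 for Derl3. limma-voom gave 0.032 for H2-DMb1, -0.014 for Sdc1 and -0.0047 for Cd24a. Fits that left out 1 library gave -0.20 to 0.087 for H2-Ab1, -0.11 to 0.028 for Cd74, -0.32 to 0.16 for H2-DMb1, -0.055 to 0.13 for B2m, -0.062 to 0.16 for Tap1, -0.17 to 0.081 for Nlrc5, -0.18 to 0.0037 for Derl3, -0.12 to 0.22 for Sdc1, -0.093 to 0.10 for Cd24a and -0.013 to 0.25 for Hdac1.

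Over all genes, 84 were higher and 45 lower. The counts were 260 and 22 with library totals alone, 279 and 239 with no filter on low counts, 21 and 5 without robust shrinkage and 20 and 5 with limma-voom. DESeq2 called 121 higher and 70 lower. Leaving out 1 library gave 31 to 83 higher and 14 to 72 lower. With the replicate block there were 39 higher and 14 lower, and H2-DMb1 stood at 0.059. Deviations of same-numbered samples correlated at 0.0199, -0.111 and -0.107, and those of differently numbered ones at -0.0307 to 0.122. With 3 libraries per group these values cannot show whether the numbers pair the samples. The block ended the calls of Fcrl1, Tnfrsf13c, Cd8b1 and Car6 among the named genes. H2-Eb1 and H2-DMb1, at 4 to 23 counts per library, are limited by depth.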
